A study of Homo sapiens with 12 samples.

Results

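The zinc finger genes of chromosome 19 studied here are the protein-coding genes of that chromosome whose symbol starts with ZNF. RefSeq (GRCh38.p14, the assembly of hg38) lists 250 of them among 1451 protein-coding genes of the chromosome and 19974 on chromosomes 1 to 22 and X. A PPARγ peak was counted as near a gene when its summit lay within 50 kb of the gene span, and each peak was counted once. The other 1201 protein-coding genes of chromosome 19 served for comparison. By position the label of gene clusters held: 224 of the 250 genes fell into 13 runs of at least 5 ZNF genes with gaps under 200 kb, and 26 lay outside them. A span had a median length of 23.3 kb, from 2.5 to 488 kb. The count includes 4 hyphenated symbols, of which ZNF559-ZNF177, ZNF816-ZNF321P and ZNF765-ZNF761 name read-through genes and ZNF470-DT a transcript beside ZNF470. None of the 4 had a peak within 50 kb.

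The study mapped PPARγ, a nuclear receptor of fat storage and fatty acid use, by ChIP-seq in MCF10A-NeuT cells. MCF10A is an established human line of mammary epithelium, here transformed by the oncogene NeuT. Its 12 libraries formed 6 groups of 2. Used here are 2 ChIP libraries from cells made by retroviral infection to express wild-type PPARγ and 2 from cells that express the mutant K154/155Q, called KQ, in which neighbouring lysines are replaced by glutamine. The retroviral vector in the labels is pMSCV-IRES-GFP. No label says that the cells' own PPARG gene was removed, so native receptor may be present in both groups. The labels do not settle the pull-down: samples are annotated with antibody to PPARγ, whereas the design text of the series speaks of anti-Flag. Whether the libraries of a group came from separate cultures is not stated, so their spread may be technical. Empty-vector ChIP libraries and the inputs were not used here. The deposited lists give peaks, not reads, so the sequencing depth behind each peak is unknown here. The list lengths were 18143 and 17859 peaks for wild-type libraries 1 and 2, 1263 and 1035 for KQ libraries 1 and 2, and 25164 and 2846 for the lists called on the pooled libraries.

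Most ZNF genes of chromosome 19 encode proteins with arrays of C2H2 zinc fingers that read DNA, many of them joined to a KRAB domain. KRAB zinc finger proteins bind mainly retrotransposons and recruit the corepressor TRIM28, which brings histone methyltransferase and heterochromatin proteins to the site. The family grew by repeated local duplication, which left the genes side by side as close paralogs. PPARγ itself binds DNA as a heterodimer with RXR, at pairs of AGGTCA-like elements spaced by a single base.

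PPARγ peaks were sparse around ZNF genes. Library by library, peaks near ZNF genes numbered 37 and 41 with wild type (libraries 1 and 2) and 4 and 0 with KQ. Other chromosome 19 genes, in the area outside ZNF windows, had 259 and 294 with wild type and 29 and 19 with KQ. The ZNF windows covered 15.5 Mb and the remaining gene windows 35.3 Mb. In peaks per Mb, ZNF windows had 2.39 against 7.33 for other genes in wild-type library 1, 2.65 against 8.32 in wild-type library 2 and 0.258 against 0.821 in KQ library 1. In KQ library 2 the value was 0 against 0.538, where a count of 0 allows up to 0.194 per Mb. ZNF windows were thus the sparser ones in all 4 libraries, and the density ratio was almost the same in 3 of them, at 0.326, 0.318 and 0.315, and at most 0.36 in KQ library 2. The mean log2 ratio was -1.60 ± 0.09 (SD, n = 4 libraries), with KQ library 2 entered at its limit of 3 counts. An exact sign-flip permutation test over the 4 libraries gave a two-sided p of 0.13, from 2 of 16 assignments as extreme, which is the smallest p that 4 libraries allow.

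Within the ZNF windows, peaks lay mostly where protein-coding genes without the ZNF stem were also close. These other genes include those with the stems ZFP, ZSCAN, ZIM, ZIK and ZBTB, such as ZIK1, 23.7 kb from the peak at ZNF550. Of the 15.5 Mb, 9.41 Mb (60.8%) lay over 50 kb from any other protein-coding gene. In this ZNF-only area the wild-type libraries had 1.28 and 1.59 peaks per Mb, against 4.12 and 4.28 per Mb in the 6.07 Mb near both kinds of genes. Neither value range of the wild-type libraries overlapped with the other, nor with the 7.33 and 8.32 of the windows of other genes. KQ library 1 had 0 peaks in the ZNF-only area, which allows up to 0.319 per Mb, and 4 in the shared area. The gradient from ZNF-only windows to the windows of other genes was therefore seen in each wild-type library.

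**Figure D1:**
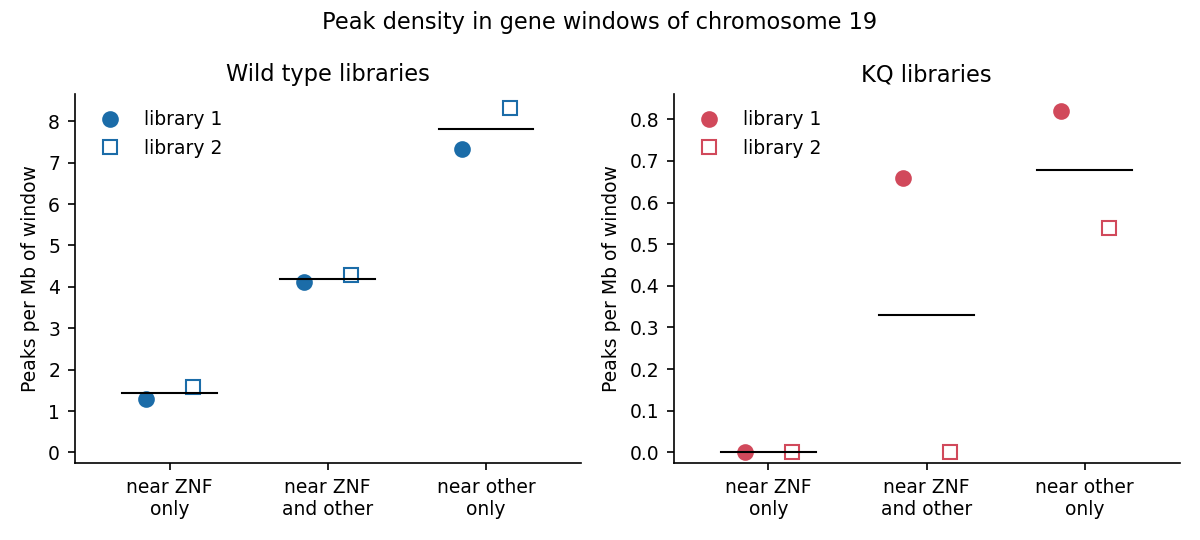
Peaks per Mb of gene window on chromosome 19 in each ChIP library, with a bar at the mean of the 2 libraries and separate vertical scales for wild type (left) and KQ (right). In both wild-type libraries density rose from windows near ZNF genes only (1.28 and 1.59) to windows near other genes only (7.33 and 8.32).

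Counted by gene, fewer ZNF genes than other genes had a peak. A pooled peak counted as reproducible when each of its group's 2 libraries held a peak overlapping it. With wild-type PPARγ, 30 of 250 ZNF genes (12%, exact 95% interval 8.24 to 16.7) had a reproducible peak within 50 kb, against 399 of 1201 other genes of the chromosome (33.2%) and 37.7% of all protein-coding genes. With all pooled wild-type peaks, 67 ZNF genes (26.8%) had one, against 60.5% of other chromosome 19 genes and 67.1% of all protein-coding genes. ZNF genes thus lay below both backgrounds in either count. The single libraries gave 54 genes (21.6%) in library 1 and 64 (25.6%) in library 2, against 49.9% and 54.6% of other chromosome 19 genes and 58.9% and 60.7% of all protein-coding genes. Neighbouring genes count the same peak, so these intervals describe the lists: the 30 genes share 15 reproducible peaks. Of the ZNF genes, 183 had 0 pooled wild-type peaks within 50 kb, 47 had 1, 14 had 2 and 6 had 3.

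With KQ, 7 ZNF genes (2.8%) had a pooled peak within 50 kb, against 15.5% of other chromosome 19 genes and 16.4% of all protein-coding genes. These were ZNF77, ZNF526, ZNF226, ZNF227, ZNF233, ZNF577 and ZNF579, named after their values were seen. A reproducible KQ peak was near 0 of 250 ZNF genes, which allows a share of up to 1.2% by the limit of 3 counts (exact 95% upper bound 1.46%), while 51 of the 1201 other genes (4.25%) and 2.68% of all protein-coding genes had one. KQ library 2 alone gave 0 ZNF genes against 6.74% of other chromosome 19 genes and 6.99% of all protein-coding genes. KQ library 1 gave 4 (1.6%) against 9.83% and 8.35%. Since library 2 had no peak near a ZNF gene, no KQ peak there could be reproducible by this definition. By peak, 0 of 5 pooled KQ peaks near ZNF genes were reproducible (exact 95% interval 0 to 52.2%). Near other chromosome 19 genes 12 of 50 were (24%), and over all 2846 pooled KQ peaks 12.4%. The bounds on gene shares treat genes as independent, and so few peaks do not settle whether reproducible KQ sites are rarer near ZNF genes. With the wild-type list limited by q to its 2846 best peaks, the length of the KQ list, 8 ZNF genes (3.2%) had a peak, against 17.7% of other chromosome 19 genes and 18.2% of all protein-coding genes. At that length the 8 genes with wild type and the 7 with KQ lay side by side.

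**Figure D2:**
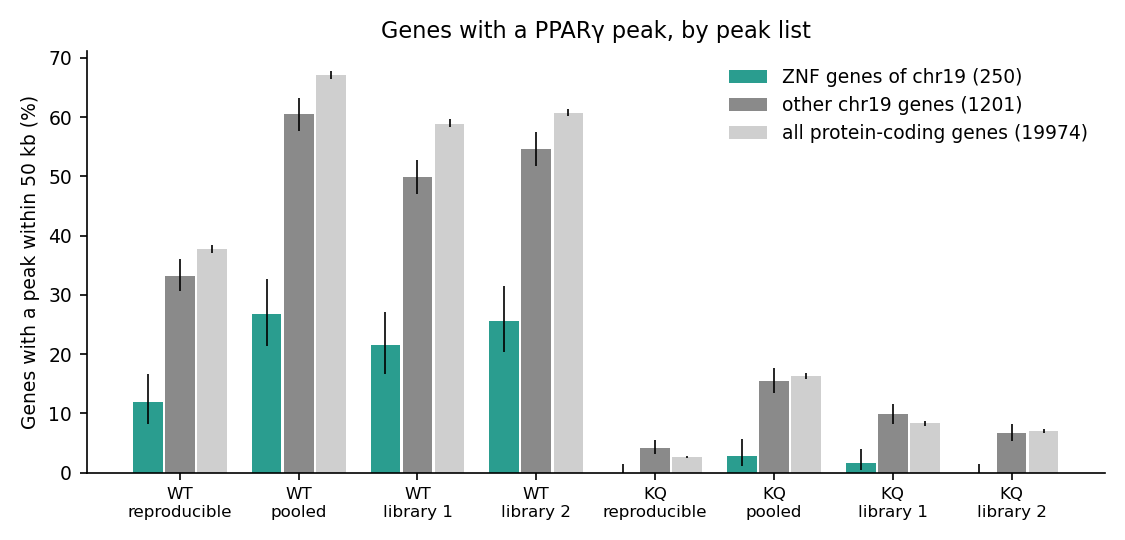
Share of genes with a PPARγ peak within 50 kb in each list, for ZNF genes of chromosome 19, other genes of the chromosome and all protein-coding genes, with exact 95% intervals that treat genes as independent. ZNF genes are the lowest of the 3 sets in every list, from 26.8% in the pooled wild-type list to 0 in KQ library 2.

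The share of ZNF genes with a wild-type peak was below that of other chromosome 19 genes in each of 4 classes of gene length. Median length was 23.3 kb for ZNF genes and 12.7 kb for the others, and longer spans have wider windows. Among genes under 15 kb, 12 of 59 ZNF genes (20.3%) had a reproducible wild-type peak, against 30.7% of 697 other genes. From 15 to 25 kb the shares were 13% of 77 and 33.5% of 197, and from 25 to 40 kb 7.04% of 71 and 35.1% of 148. At 40 kb or more, 3 of 43 ZNF genes (6.98%) had one against 42.1% of 159 other genes. Among other genes the share with a reproducible peak rose with length, whereas among ZNF genes the 2 longer classes had the lower shares. Genes near the same peak were each counted, which bears on this order. Among the 12 short ZNF genes, ZNF549, ZNF416 and ZNF530 counted the same peak of cluster 13, and ZNF776, ZNF586 and ZNF552 another. With all pooled wild-type peaks the order by length was less regular: ZNF genes had 42.4%, 23.4%, 16.9% and 27.9% from the shortest to the longest class, and other genes 57.2%, 62.4%, 68.2% and 65.4%. Among the 5 longest ZNF genes most had no pooled peak. ZNF536, a 488 kb gene with a role in neurons that stands alone at 30225592 to 30713586, ZNF420 (122 kb) and ZNF69 (92.4 kb) had 0 peaks in every list, and ZNF254 (96.5 kb) had 1 in wild-type library 1, 2 in library 2 and 0 in the pooled lists. ZNF91, a 90.5 kb gene whose product represses SVA retrotransposons, had 1 peak within 50 kb, described below with ZNF724.

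**Figure D3:**
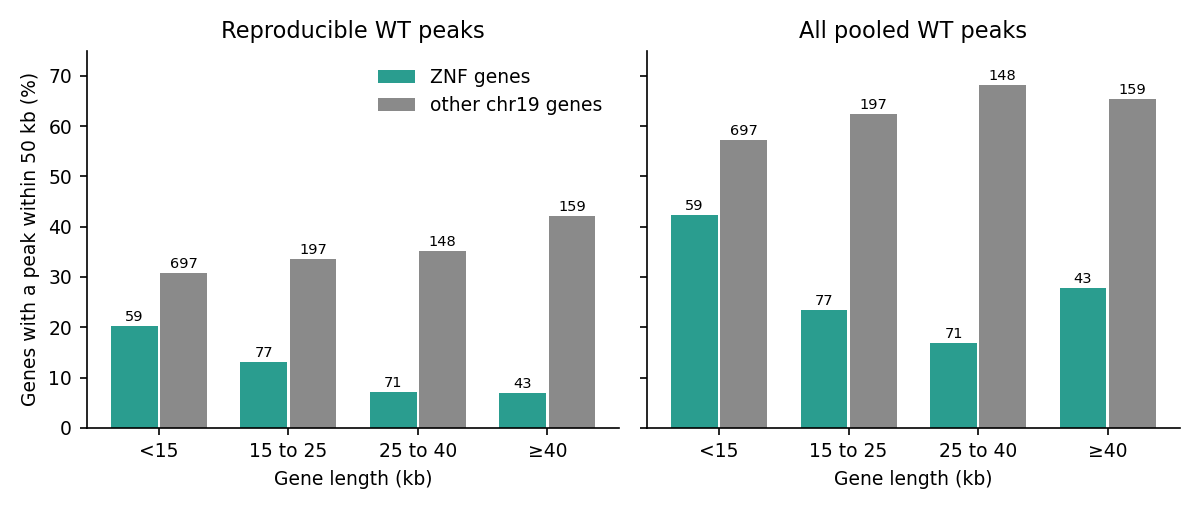
Share of genes with a wild-type peak within 50 kb in 4 classes of gene length, for reproducible peaks (left) and all pooled peaks (right), with the number of genes above each bar. Genes near the same peak are each counted. For reproducible peaks the ZNF bars fall from 20.3% to 6.98% while those of other chromosome 19 genes rise from 30.7% to 42.1%; for all pooled peaks the longest ZNF class, at 27.9%, is above the one before it.

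Peak counts differed among the clusters, on small numbers. Runs 4 to 6, numbered in chromosome order, lie next to each other and held 1 pooled wild-type peak in all. Cluster 4 (ZNF101 to ZNF486, 19668153 to 20200488) holds 8 ZNF genes and cluster 5 (ZNF737 to ZNF98, 20530276 to 22422346) holds 18, and neither had a peak in any of the 6 lists. The windows of cluster 5 span 1.88 Mb with no other protein-coding gene within 50 kb, so its 0 allows up to 1.59 peaks per Mb. For cluster 4 the limit is 4.74. Both limits are above the 1.49 pooled wild-type peaks per Mb of the whole ZNF-only area, so these counts of 0 do not set the 2 runs apart from it. Cluster 6 (ZNF492 to ZNF91, 22634324 to 23395471, 7 genes) had 1 pooled wild-type peak, which was the highest-fold peak near any ZNF gene. Cluster 12 (ZNF582 to ZNF835, 56382751 to 56671757, 8 genes) also had 0 in every list, although 78.6% of its window lay within 50 kb of other genes. At 0.389 Mb a count of 0 there allows up to 7.71 per Mb, so the small windows say little. Cluster 7 (ZNF302 to ZNF792, 34675979 to 34964229, 5 genes) had 0 pooled peaks and 2 in wild-type library 2, both near ZNF792.

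The 4 runs with most genes had between 1.6 and 5.01 pooled wild-type peaks per Mb, around the 3.04 of all ZNF windows. Cluster 3 (ZNF653 to ZNF791, 11483429 to 12633834, 25 genes) had 2, both inside ZNF44, or 1.6 per Mb. Cluster 8 (ZNF565 to ZNF573, 36182060 to 37779586, 26 genes) had 3 (1.88 per Mb), of which none was reproducible. They lay inside ZNF573 (fold 8.41) and, as a neighbouring pair, inside ZNF875 (5.16 and 5.08). The run of 40 genes from ZNF577 to ZNF331 (cluster 10, 51804442 to 53580269) had 6 (3.2 per Mb) and 0 reproducible ones, led by a peak inside ZNF611 (fold 8.91). The last and largest run, of 43 genes from ZNF264 to ZNF446 (cluster 13, 57191500 to 58489533), had 7 peaks (5.01 per Mb), 2 of them reproducible, led by a peak 3.2 kb outside ZNF552. Because its genes are short (median 13.1 kb) and close together, these 7 peaks lay within 50 kb of 23 of the 43 genes.

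Cluster 9 (ZNF283 to ZNF180, 43827321 to 44500522, 20 genes) had 4 pooled wild-type peaks, or 5.17 per Mb, and 1 KQ peak. Its highest-fold peak was the one nearest to ZNF283, which lies closer to KCNN4. Cluster 2 (ZNF317 to ZNF846, 9140397 to 9786160, 12 genes) had 2 peaks (2.79 per Mb), at ZNF561 and inside ZNF846, and cluster 1 (ZNF554 to ZNF77, 2819868 to 2944971, 5 genes) had 1 (4.44 per Mb), near ZNF77. Cluster 11 (ZNF628 to ZNF580, 55476617 to 55645623, 7 genes) was the densest, with 4 pooled peaks in 0.269 Mb, or 14.9 per Mb, against 11.4 for the windows of other genes. Both wild-type libraries gave 11.2 per Mb there, from 3 peaks each. This run is also the one whose whole window (100%) lay within 50 kb of other genes, and its highest-fold peak, assigned to ZNF579, lay 2 kb from SBK3. The 26 ZNF genes outside runs had 17 pooled peaks, or 5.23 per Mb, and 6 of them (23.1%) had a reproducible peak, against 10.7% of the 224 genes in runs. Densities thus differed several-fold between runs, on counts of 0 to 7 pooled peaks each.

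**Figure D4:**
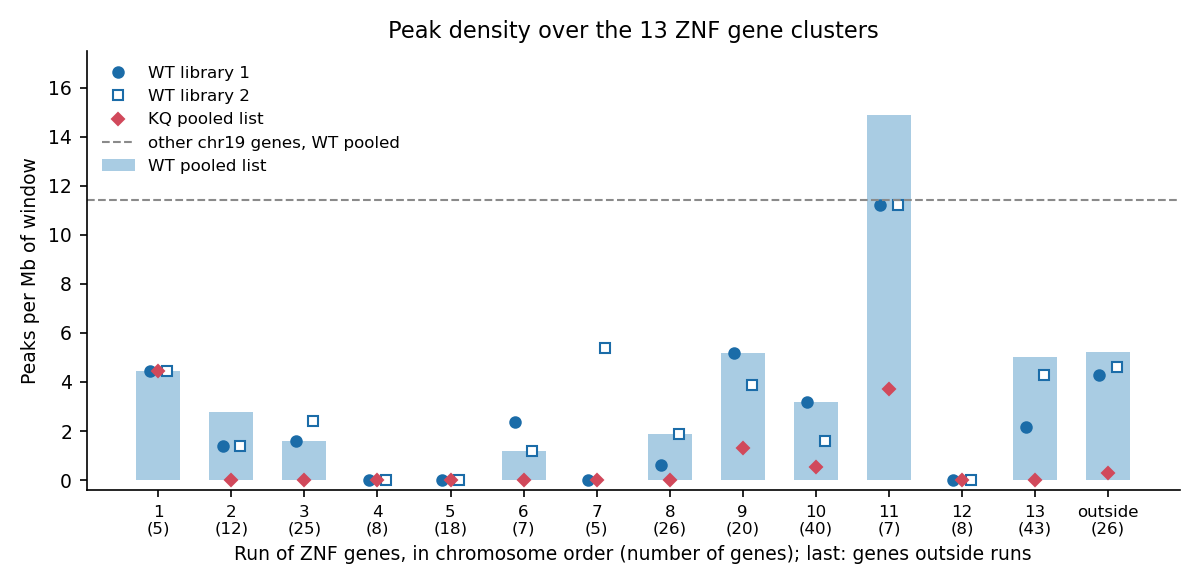
Peaks per Mb of window for each of the 13 runs of ZNF genes in chromosome order and for the 26 genes outside them, as the pooled wild-type value (bar), the 2 wild-type libraries and the pooled KQ list. Clusters 4, 5 and 12 have 0 in every list, and cluster 11 alone exceeds the pooled wild-type value of 11.4 for other chromosome 19 genes (dashed line).

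The strongest site near a ZNF gene lay in a stretch with no other gene family. This wild-type peak, at chr19:23264294-23264515, was 14 kb outside ZNF724, before its start, and within 50 kb of ZNF91, and the nearest protein-coding gene of another family was 494 kb away. Fold enrichment over the caller's background is the authors' value, here and for every fold. This peak had folds of 17 and 7.35 in the 2 wild-type libraries and 19 in the pooled list. The KQ lists had no peak there. Both wild-type libraries thus held the site, at unequal height.

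Another site far from other families (213 kb) was the peak 10.2 kb outside ZNF561, at 9597027 to 9597359, with 8.65 in wild-type library 1, 10 in library 2 and 11.9 pooled. It also lay within 50 kb of ZNF121 and ZNF562 and had no KQ peak. In the ZNF-only area, 14 pooled wild-type peaks were found in all, 5 of them reproducible. The other 3 reproducible ones lay inside ZNF44 and ZNF233 and near ZNF552. Of the 14 peaks, 0 overlapped a KQ peak, which allows a share of up to 23.2% (exact upper bound). That share was 9.98% near other genes of the chromosome and 9.1% over all pooled wild-type peaks. The count of 0 therefore does not set the ZNF-only area apart. The ZNF233 peak had folds of 5.11 and 5.19 in libraries 1 and 2. The ZNF552 peak, at 57803776 to 57803979, had 6.73 and 5.94.

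Several strong peaks assigned to ZNF genes lay closer to a gene of another family. The second highest, at 42191944 to 42192240, was 28.2 kb outside ZNF526 but inside POU2F2, a transcription factor of B cells. Wild-type libraries 1 and 2 gave folds of 5.93 and 14.8, KQ library 1 gave 6.33, and KQ library 2 had no peak there. The peak 25.3 kb outside ZNF77 lay 7.1 kb from TLE6 and had 10.9, 5.98 and 9.26 in the same 3 libraries. The peak near ZNF579, at 55547306 to 55547738, had 9.95, 9.74 and 5.08. These 3 sites were the ones held by 3 of the 4 libraries, and each lay within 50 kb of a gene of another family. Further sites of this kind had no KQ peak: 42.7 kb outside ZNF283 and 3.7 kb from KCNN4, a calcium-activated potassium channel (5.1 and 8.37), 17.9 kb outside ZNF114 and inside CARD8, an inflammasome protein gene (8.59 and 4.79), and 24 kb outside ZNF574 and inside POU2F2 (6.89 and 10.5).

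Over all 47 pooled wild-type peaks near ZNF genes, a ZNF gene was the nearest protein-coding gene for 24. By span, 17 summits lay inside a ZNF gene, 14 inside a gene without the ZNF stem and 16 in neither. Among the 15 reproducible peaks these numbers were 4, 4 and 7. The 6 genes with 3 pooled peaks within 50 kb were ZNF780B, ZNF546, ZNF526, ZNF304, ZNF543 and ZNF83, of which ZNF780B shared its peaks with its neighbour ZNF546 and ZNF304 with ZNF543, while those of ZNF526 lay near no other ZNF gene. At the edge of the window, the farthest peak counted lay 47.3 kb outside ZNF557, inside the insulin receptor gene INSR (fold 6.92), and the nearest one left out lay 50.4 kb from it (fold 5.88).

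A few peaks sat at the start of a ZNF gene. Starts were known for 219 of the 250 ZNF genes from RefSeq promoters (GRCh38.p14), and 4 of the 47 wild-type summits lay within 1 kb of one, against 53 of 401 summits near other genes with known starts for 966 of the 1201. The 4 were at ZNF44 (80 bases after the start), ZNF546 (585 after), ZNF787 (901 after) and ZNF550 (592 before the listed start, inside its span). All but the ZNF787 peak were reproducible. ZNF44 had fold 5.81 and 7.54 in libraries 1 and 2, ZNF546 had 4.81 and 8.91, and ZNF550 had 7.27 and 7.77. The ZNF787 peak was found in library 2 alone (7.11). A different set of 4 wild-type summits near ZNF genes lay within 1 kb of the start of another gene. The counts at starts, 4 of 47 and 53 of 401, are therefore unlike, since the first leaves out the starts of genes without the ZNF stem. They were not tested against each other and do not show that peaks near ZNF genes avoid starts. With KQ, 1 summit lay at a start, 100 bases before that of ZNF227. It had fold 4.3 in the pooled list, no peak in either KQ library, and no wild-type peak. It was the only one of the 5 pooled KQ peaks near ZNF genes without a wild-type overlap.

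Of all RefSeq promoters of ZNF genes, taken as 250 bases before to 50 after the start, those of ZNF44 and ZNF227 were the 2 that a pooled peak reached. Both are printed 5′ to 3′ along the gene, with the bases inside the peak in capitals, to show what sequence the peaks cover: 83 of 300 bases at ZNF44 (wild-type peak 12294721 to 12294916, promoter chr19:12294834-12295133, minus strand) and 252 of 300 at ZNF227 (KQ peak 44212275 to 44212533, promoter chr19:44212282-44212581, plus strand).
ZNF44: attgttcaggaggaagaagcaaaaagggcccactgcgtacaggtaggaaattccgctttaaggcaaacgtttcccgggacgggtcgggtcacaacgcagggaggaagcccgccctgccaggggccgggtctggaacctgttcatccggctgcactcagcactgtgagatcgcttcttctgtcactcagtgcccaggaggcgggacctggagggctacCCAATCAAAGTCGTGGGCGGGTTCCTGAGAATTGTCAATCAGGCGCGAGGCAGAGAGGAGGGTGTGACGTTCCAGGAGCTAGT
ZNF227: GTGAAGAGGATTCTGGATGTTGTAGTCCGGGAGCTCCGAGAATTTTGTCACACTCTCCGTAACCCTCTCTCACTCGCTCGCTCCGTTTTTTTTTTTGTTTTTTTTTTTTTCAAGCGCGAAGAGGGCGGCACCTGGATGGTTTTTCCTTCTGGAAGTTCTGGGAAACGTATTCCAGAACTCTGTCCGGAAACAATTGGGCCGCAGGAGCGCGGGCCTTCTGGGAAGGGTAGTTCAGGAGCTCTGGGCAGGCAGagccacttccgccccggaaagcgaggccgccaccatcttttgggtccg
Neither promoter holds the element AGGTCA on either strand. They hold 17 and 19 CpG dinucleotides, beside a median of 20 over ZNF promoters and 21 over promoters of other chromosome 19 genes. At ZNF44 the summit (12294803) and most of the 196 bp peak lie outside the printed promoter. The search for AGGTCA therefore did not cover them.

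ZNF promoters as a group resembled others in their PPAR-like letters. AGGTCA, searched on both strands, occurred in 29 of 219 ZNF promoters (13.2%), in 11.3% of 966 promoters of other chromosome 19 genes and in 11.7% of 15813 promoters of all protein-coding genes. The full repeat AGGTCANAGGTCA, which contains that element, occurred in 0 ZNF promoters and in 3 of 15813. The looser AGGNCANAGGNCA occurred in 2 ZNF promoters (0.913%), in 0.621% of other chromosome 19 promoters and in 0.272% of all. Those 2 belong to ZNF320 and ZNF551 and are shown with the bases around them, the match in capitals, because the same 13 letters occur in both genes, each on the strand opposite to the gene.
ZNF320: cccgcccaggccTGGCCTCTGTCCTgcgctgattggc
ZNF551: tggcggtcatttTGGCCTCTGTCCTgtt
The match begins 25 bases before the start of ZNF320 (chr19:52897707-52897719, gene on the minus strand) and 34 bases after that of ZNF551 (chr19:57682011-57682023, plus strand). Neither gene had a pooled peak of wild type or KQ within 50 kb. These matches are letters in a window and were not shown to be bound.

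The peaks found near ZNF genes were of similar height to those near other genes. Within the pooled wild-type list, median fold was 6.58 for the 47 peaks near ZNF genes and 5.71 for 401 near other chromosome 19 genes. The order was the opposite in both libraries, with 5.93 against 6.12 in library 1 and 5.38 against 6.22 in library 2, so the direction depends on the list. The highest fold was 19 near ZNF genes and 25.5 near other genes. Median width was 205 and 203 bp. By support, 15 of the 47 (31.9%, exact 95% interval 19.1 to 47.1) were reproducible, against 35.9% of 401 (31.2 to 40.8) and 31.9% of all 25164 pooled peaks. A further 16 were found in library 1 alone, 7 in library 2 alone and 9 in neither. Reproducible peaks had a median fold of 8.49 and the others 5.33. Near other genes these medians were 8.58 and 5.02. The support of the pooled peaks did not set ZNF sites apart beyond these intervals. For height no interval was computed.

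**Figure D5:**
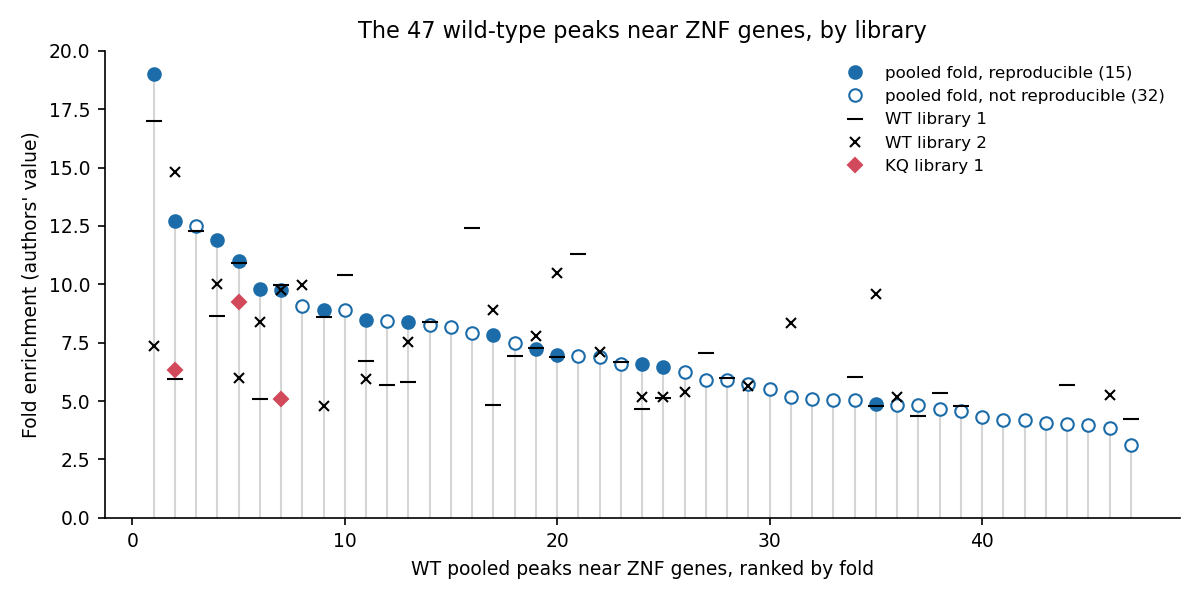
Fold enrichment of the 47 pooled wild-type peaks near ZNF genes, ranked by pooled fold, with the fold of the overlapping peak in wild-type libraries 1 and 2 and KQ library 1 where there is one (KQ library 2 has none). The peak near ZNF724 stands highest at 19, and the KQ library holds 3 sites, all among the 7 highest.

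More single-library peaks near ZNF genes failed to enter the pooled list. In wild-type library 2, 19 of 41 peaks near ZNF genes (46.3%, exact 95% interval 30.7 to 62.6) overlapped no pooled peak, against 25.5% (20.6 to 30.9) near other chromosome 19 genes. In library 1 these were 6 of 37 (16.2%, 6.19 to 32) and 7.34% (4.47 to 11.2). The direction was the same in both libraries, while the intervals overlapped. Such peaks were narrow, with a median width of 128 bp in library 2 against 166 bp for those in the pooled list. Near other chromosome 19 genes these widths were 128 and 194 bp, so narrowness was not particular to ZNF windows. The peaks near ZNF genes that missed the pooled list include the library 2 peak 28.7 kb outside ZNF836 and inside PPP2R1A, with fold 8.55. Library 2 also had 2 inside ZNF254, where library 1 had 1 more.

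Peaks were fewer with KQ than with wild type both near ZNF genes and near other chromosome 19 genes. The mean number of peaks near ZNF genes was 39 ± 2.83 with wild type and 2 ± 2.83 with KQ (SD, n = 2 each, exact permutation p = 0.33, two-sided, the smallest that 2 against 2 allow), a ratio of 19.5. For other chromosome 19 genes the means were 276 ± 24.7 and 24 ± 7.07, a ratio of 11.5 (exact permutation p = 0.33). The difference between these ratios rests on KQ library 2: against KQ library 1 alone they were 9.75 and 9.53. Peaks near ZNF genes made up 12.5% and 12.2% of the gene peaks of chromosome 19 in the wild-type libraries, 12.1% in KQ library 1 and 0 of 19 in KQ library 2, which allows a share of up to 15.8% by the limit of 3 counts (exact 95% upper bound 17.6%). A lower share with KQ was therefore not detectable at this number of peaks (difference of means 6.31 points, exact permutation p = 0.33, and 0.248 points without KQ library 2).

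Sites shared between the groups had a similar share near ZNF genes and elsewhere on the chromosome, within wide intervals. Of the 47 wild-type peaks, 4 (8.51%, exact 95% interval 2.37 to 20.4) overlapped a pooled KQ peak, against 9.98% (7.22 to 13.3) near other chromosome 19 genes. Over all 25164 pooled wild-type peaks the share was 9.1%. The 4 were the sites near ZNF526, ZNF77 and ZNF579 and a weaker one 0.3 kb outside ZNF577, inside FPR3, a formyl peptide receptor gene (fold 5.91 with wild type and 3.27 with KQ). In the other direction 4 of 5 KQ peaks (80%) overlapped a wild-type peak, against 84% of 50 near other chromosome 19 genes and 80.4% of all 2846. Pooled KQ folds at the 3 stronger sites were 2.92 near ZNF526, 9.34 near ZNF77 and 4.96 near ZNF579. KQ library 1 had 1 further peak that was not in the pooled list, 47.3 kb outside ZNF296 and inside PPP1R37 (fold 5.55).

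Genes for the proteins that work with KRAB zinc fingers had a share of reproducible wild-type peaks close to the background. Of 26 corepressor and heterochromatin genes on any chromosome, 15 (57.7%) had a pooled wild-type peak within 50 kb and 9 (34.6%) a reproducible one, against 67.1% and 37.7% of all protein-coding genes. SETDB1, the histone methyltransferase brought in by TRIM28, had a reproducible peak 11.4 kb outside its span with fold 4.95 and 10.5 in libraries 1 and 2. ATF7IP, its partner, had one 49.2 kb outside (10.8 and 6.91), CBX3, a heterochromatin protein, 34.3 kb outside (8.94 and 8.37), and EHMT2, another histone methyltransferase, inside its span (5.75 and 11.9). The other 5 were HDAC1, PPHLN1, CHD3, UHRF1 and DNMT1. TRIM28 itself, at the end of chromosome 19, had 2 pooled wild-type peaks and 0 reproducible ones. With KQ, 4 of the 26 (15.4%) had a pooled peak and 0 a reproducible one, beside 16.4% and 2.68% of all protein-coding genes. Of 19 chromosome 19 genes with the stems ZFP, ZSCAN, ZIM, ZIK, ZBTB, ZKSCAN or PEG3, 4 (21.1%) had a pooled wild-type peak, against 60.5% of the 1201 genes that include them. A reproducible one was near 3 (15.8%, exact 95% interval 3.38 to 39.6), an interval that holds the 33.2% of those genes, and 0 had a KQ peak, against 15.5%. The 3 were ZBTB7A, a repressor with a BTB domain, ZFP36, which binds messenger RNA and not DNA, and ZIK1, whose peak is the ZNF550 site. Of the 4 genes with any peak, ZBTB45 is the other one.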

How the data were processed

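The data are 4 ChIP-seq libraries of MCF10A-NeuT cells, 2 with wild-type PPARγ and 2 with KQ, as 6 lists: 4 of single libraries and 2 of pooled libraries. The authors aligned to hg38 with Bowtie2 (version 2) and called peaks with MACS2, per the submitters' processing notes. Not given in the sources used here: caller settings, the control, and how reads matching several places were handled, which bears on close paralogs. For each peak the deposited lists give a fold enrichment over background, a ratio made by the authors, and −log10 of the q-value.

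Summits, read as peak start plus the summit offset, were assigned to RefSeq gene spans (GRCh38.p14) extended by 50 kb. Overlap meant at least 1 bp. Densities used merged windows, with areas near both gene sets given to ZNF genes. A library at 0 entered ratios at 3 counts, and 3 counts also set the limit given for a count of 0. Shares have exact (Clopper-Pearson) 95% intervals, which cover counting error only. Libraries were compared with exact permutation tests, and peaks and genes with no test, since neither are replicates. Scripts ran in Python 3.11.15 with numpy 2.4.6, pandas 2.3.3 and scipy 1.17.1 and were tested on simulated data.

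The members, gene lists and tests were chosen with earlier results of these data known. Genes were named by rule: those nearest to the 10 highest-fold reproducible wild-type peaks, to all reproducible KQ peaks and to KQ peaks without wild-type overlap, the 5 with most peaks, the 5 longest, the ends of each cluster and the site of its highest-fold peak, members with a peak within 1 kb of their start, and members of the 2 related lists with a reproducible peak. As 6 genes tied for most peaks, 6 are named. Sites were not split by exon, intron or UTR.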

Additional observations from a re-analysis of the deposited data

How the results depend on the processing

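Of 61 alternative values, 50 kept their direction or stayed within their error and 11 moved. Part of the 50 could not have moved. The replicate-block values equal the main ones by construction, and shortening the wild-type list leaves the KQ list as it was. The hyphenated symbols left out in another setting had no peak. The mean log2 density ratio stayed below 0 in every setting, from -1.76 to -0.90, the latter for gene spans without extension. In spans both KQ libraries had 0 peaks and entered at 3, and 3 of the 4 libraries were below 0, at -1.86 and -1.73 with wild type and at most -0.80 in KQ library 1. The bound for KQ library 2 was 0.79 (exact permutation p = 0.25), so its direction there is not given by the data. Leaving out a library in turn gave -1.65 to -1.58, a ratio of wild-type to KQ peaks near ZNF genes of 9.75 to 20.5 (at least 13 without KQ library 1), and a difference in share of 0.248 to 12.4 points. With KQ at 0 in both libraries, that ratio was at least 7.67 for a 10 kb window and at least 4.83 in spans. The share of ZNF genes with a reproducible wild-type peak, 12%, was 2.4% with a 10 kb window, 1.6% with gene spans only and 6.8% with −log10 q of at least 5. With 1 wild-type library deciding it was 17.2 to 20%. The wild-type list at the KQ length gave 3.2%, counted among the moved values. That list was not filtered for reproducibility, so its like value is the 26.8% of all pooled wild-type peaks and not the 12%. Of other chromosome 19 genes, 13.2% had a reproducible wild-type peak at 10 kb and 6.08% in spans. Their share was not computed for −log10 q of at least 5 or for 1 library deciding. The share of ZNF genes with a KQ peak, 2.8%, was 0.8% at 10 kb and 0.4% in spans, against 5.66% and 1.92% of other chromosome 19 genes. The reproducible share of peaks was 46.8 to 66% with 1 wild-type library deciding. In spans, 0 of 17 wild-type peaks overlapped a KQ peak and 0 of 1 the reverse. Narrower windows hold fewer peaks by construction. With the replicate number as a block, the differences in peaks near ZNF genes were 33 and 41 (exact permutation p = 0.5, the smallest for 2 pairs) and in share 0.379 and 12.2 points (p = 0.5). Libraries share only a number, and peak lists give no common features on which a pairing could be checked. The small KQ counts, 4 and 0, limit every statement about that group.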
